A study of Mus musculus with 11 samples.

Results

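Endothelial populations of the embryo were set against mature hematopoietic stem cells (HSCs) in the RNA-seq table of a mouse series that follows HSC formation. The endothelial pole comprised the 4 libraries of 2 populations sorted at embryonic day (E) 10.5, and the mature pole comprised the 4 libraries of HSCs from fetal liver (FL) and adult bone marrow (BM), so that 8 of the 11 libraries entered the comparison. The 3 libraries of pre-HSCs, the cells that lie between these stages, were placed between the poles as a description. Members were chosen by population label alone, with no use of expression.

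Endo cells carry the surface protein CD31 and lack GFP from the Runx1 locus, Kit, CD45 and CD41. Hemogenic endothelium (HE) cells are CD31+ and Runx1:GFP+, with low or no Kit and without CD45 and CD41. Both came from E10.5 embryos of a Runx1tm4Dow reporter cross to B6C3F1. FL HSCs were Lin-Sca1+Kit+CD150+CD48- cells of E14.5 fetal liver, and BM HSCs were Lin-Sca1+Kit+CD150+ cells of mice aged 6 to 8 weeks. For the BM sort, the study's methods and its table of markers differ in whether CD48 and CD135 or CD34 completed the gate. Pre-HSCs were CD31+CD144+ESAM+Kit+ and positive for Ly6a:GFP, which reports the promoter of the gene for Sca1. Their labels give E10.5, whereas the study's text gives a later day. The labels give strain B6129SF1 for all samples, and the study's methods give different crosses for the populations. Libraries were made from sorted cells pooled from many embryos or mice. Stage, tissue, dissociation, reporter allele and cross differ together with the poles, so their parts in any difference cannot be told apart.

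In the embryo, HSCs arise from HE, a flat cell in the wall of the large arteries that loses its junctions, rounds up and leaves the vessel in the endothelial-to-hematopoietic transition (EHT). The transcription factor Runx1 is required for this step, and the cells that emerge mature further before they can engraft an adult. They then expand in the fetal liver and settle in the marrow, where most are quiescent. The comparison of the poles therefore sets an endothelial program against a blood program. Endo cells, which the study collected for comparison, do not belong to its continuum of HSC formation. Terms such as loss and gain below describe differences between the poles and not changes followed within a lineage.

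Expression is given in FPKM, fragments per kilobase of transcript and per fixed number of mapped fragments, which corrects for length and so allows levels of different genes to be compared. Values follow the order Endo 1, Endo 2, HE 1, HE 2, and then FL 1, FL 2, BM 1, BM 2. The libraries held between about 22300000 and 66200000 fragments, as recovered from the steps that single fragments leave in the lowest values, and HE 2 was the shallowest. A log2 fold change is the mature mean minus the endothelial mean of log2(FPKM + 1), and a gene was called at an adjusted p under 0.05 in limma with a change of at least 2-fold. The spread within a pole includes differences between its 2 populations as well as between replicates. In pooled cells, fewer cells of a type and less RNA per cell cannot be told apart. Positions are on NCBIM37 (mm9).

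The labels were first checked against defining transcripts. Pecam1 (CD31) was at 178 to 218 FPKM in the endothelial libraries and 15.4 to 21.2 in the HSC libraries, and Emcn, an endothelial sialomucin that no gate used, was at 307, 266, 223 and 216 against 9.33, 14.6, 8.71 and 8.72. Slamf1 (CD150), part of both HSC gates, was at 13.0, 16.8, 31.8 and 29.4 FPKM in HSCs and at most 0.205 in the endothelial libraries. Ptprc (CD45) was at most 0.0969 FPKM in the endothelial libraries, which were sorted without it, and 13.9, 28.8, 48.1 and 44 in HSCs. The markers therefore followed the labels in every library. Runx1, whose reporter separated Endo from HE, was at 0.805 and 0.956 FPKM in Endo, 3.74 and 3.13 in HE, and 41.7, 45.3, 73.4 and 60.3 in HSCs. Transcripts of proteins used in the gates (Pecam1, Cdh5, Esam, Kit, Ptprc, Itga2b, Ly6a, Slamf1, Cd48, Flt3, Cd34 and Runx1) describe the sort, and their differences are not independent results. Cd48, which the FL gate excludes at the surface, was nonetheless at 35.9 and 16.6 FPKM in FL HSCs, at 5.01 and 7.72 in BM HSCs, and was listed at 0 in all 4 endothelial libraries.

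Marker genes of other cell types were not evenly spread, and which cells made their RNA was not measured. Globins and other erythroid genes summed to between 8550 and 12100 FPKM in the endothelial libraries and between 465 and 763 in HSCs. Mural and mesenchymal genes summed to 213 and 302 FPKM in Endo, 883 and 943 in HE, and 3.53 to 11.2 in HSCs. The study counts Acta2 and Tagln, which are on this list, among genes raised in HE that probably serve the change of shape in EHT. Germ cell and pluripotency genes summed to 231 and 161 FPKM in Endo, 33.4 and 24.8 in HE, and at most 8.61 in HSCs. Macrophage and granulocyte genes summed to 7.95 to 18.4 FPKM in the endothelial libraries, 1080 and 626 in FL, and 224 and 241 in BM. These sums moved with the poles, and their part in the differences below was not tested except where a value is given.

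Of 14263 genes tested, 5060 (35.5%) were called. HSCs had higher expression of 2861 genes (20.1%) and lower expression of 2199 (15.4%). All 4 HSC libraries lay above all 4 endothelial libraries for 4561 genes (32.0%) and below them for 3027 (21.2%), and such separation held for 94.4% of the higher calls and 95.5% of the lower calls. The median log2 fold change over all tested genes was 0.23. Changes of 8-fold or more were more often losses, with 463 lower genes against 317 higher genes. Of the called genes, 2569 of the higher and 2082 of the lower ones were protein coding. FL and BM HSCs also differed from each other, by the same limits, for 539 of the higher and 284 of the lower genes. These shares are the background for the gene groups that follow. Where a group had no gene called in a direction by limma, an unadjusted p under 0.05 was reached in that direction by 3 cytokine receptors, 3 cell cycle genes, 1 caveolar gene and 1 gene of cholesterol synthesis, and by no member of the other groups.

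The genes with the largest gains were mostly those of blood cells. The largest was AI662270, a processed transcript at chr11:83037078-83040106 of no stated function, at 0.337, 0.141, 0.406 and 0.495 FPKM in the endothelial libraries and 284, 305, 315 and 354 in HSCs, which is 7.88 on the log2 scale (SE 0.14, adjusted p = 1.53e-09 by limma). Psmb8, a catalytic subunit of the immunoproteasome at chr17:34334666-34338399, was at 0.499, 0.28, 0.0977 and 0.0794 FPKM against 119, 88.4, 197 and 256 and rose by 6.96. Myb, a transcription factor required for definitive hematopoiesis at chr10:20844736-20880790, was at 0.303, 0.334, 0.324 and 1.41 FPKM against 113, 134, 162 and 139 and rose by 6.48. In each of these the poles were separated by far more than the spread within either. Hlf (a transcription factor of HSCs), Rac2 (the hematopoietic Rac GTPase), Spn (CD43, a leukocyte sialomucin), Bin2, Ptprcap (which binds CD45), Srgn (the granule proteoglycan serglycin) and Lyz2 (lysozyme) were also among them, with log2 fold changes of 5.98, 6.05, 6.20, 6.18, 6.68, 6.04 and 6.03. The rule also selected Snora28, a small nucleolar RNA at 62.5 to 1630 FPKM in HSCs, whose short length makes FPKM uncertain.

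The genes with the largest losses fell into several classes. Hbb-bh1, an embryonic beta-like globin at chr7:110990150-110991678, was at 2550, 2520, 2670 and 3630 FPKM in the endothelial libraries, 1.09 in FL 1 and listed at 0 in the other HSC libraries. The embryonic globins Hba-x and Hbb-y fell with it, and the pseudogene Hbb-bh0, at 739 to 1270 FPKM, was listed at 0 in all HSC libraries. Globins are products of erythroid cells, and no endothelial library was without them. Mest, an imprinted gene at chr6:30673547-30698457, was at 1180, 1490, 1050 and 1220 FPKM against 11.9, 3.18, 0.958 and 0.172 and fell by 8.52 on the log2 scale (SE 0.61, limma's adjusted p = 3.09e-06). Cldn5, the main claudin of endothelial tight junctions, fell from 681, 504, 464 and 380 FPKM to 3.68, 1.43, 0.395 and 1.08 (log2 fold change -7.69). The growth factor Mdk (midkine, -7.83), imprinted Nnat (-7.41), the apelin receptor Aplnr (-7.38), Plvap, which forms the diaphragms of caveolae and fenestrae (-7.22), and smooth muscle actin Acta2 (-7.09) followed. Igfbp2, a binding protein of insulin-like growth factors, was at 142, 244, 601 and 234 FPKM and listed at 0 in all HSC libraries.

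**Figure D1:**
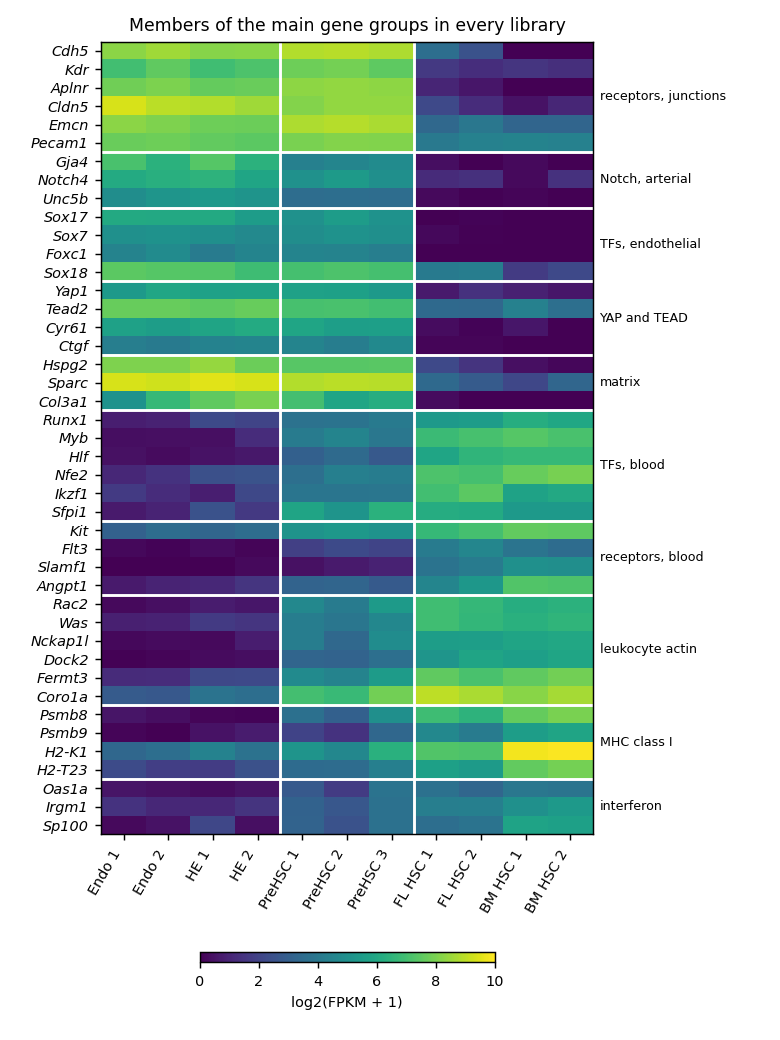
Heat map of log2(FPKM + 1) for members of the main gene groups (a gene per line, grouped by role) in each of the 11 libraries, from 0 (dark) to 10 (bright). Cdh5 stands between 292 and 489 FPKM in the endothelial and pre-HSC libraries and at 11.2 or below in HSCs, and Myb stands between 113 and 162 in HSCs and at 1.41 or below in the endothelial libraries.

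Most genes of the endothelial surface were lower in HSCs. Of 30 receptors and junction genes, 25 were lower in HSCs and none was higher, with a median log2 fold change of -3.19 against 0.23 for all genes. Of the 30, 4 were under 1 FPKM in all 4 HSC libraries. Kdr (VEGF receptor 2), which reads the main growth signal of the endothelium, was at 124, 187, 120 and 145 FPKM against 2.19, 1.47, 1.88 and 1.57 in HSCs and fell by 5.69 on the log2 scale (SE 0.17, limma's adjusted p = 2.14e-08). Flt1, VEGF receptor 1, fell by 5.33. Mcam (CD146, an adhesion receptor), at 83.3, 88, 97.9 and 87.8 FPKM, was at 0.653 and 0.728 in FL HSCs and listed at 0 in both BM libraries. Cdh5 (VE-cadherin), at chr8:106625525-106668402, was at 303, 383, 292 and 301 FPKM in the endothelial libraries, 11.2 and 4.78 in fetal liver, and 0.0257 and 0.0124 in bone marrow. Its protein was not required in the Endo, HE or HSC gates, but it was in that of pre-HSCs. The loss was graded. The angiopoietin receptor Tek and its partner Tie1 fell by 1.85 and 1.89 only, and HSCs kept 9.40 to 15.5 FPKM of Tek and 46.1 to 71.3 of Tie1. Calcrl, the receptor of adrenomedullin, was not called, at 26.9 to 42.5 FPKM in the endothelial libraries and 28.1 to 62.2 in HSCs, and neither was Cd93, a C-type lectin receptor, at -0.73.

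Arterial genes were lower as well. Notch signaling specifies arteries and is needed for HE formation, and of its 20 genes, with the arterial and venous markers, 18 were lower and none was higher (median log2 fold change -4.08). Gja4 (connexin 37, an arterial gap junction protein) was at 140, 81.8, 165 and 85.9 FPKM against 0.291, 0.0147, 0.202 and 0 in HSCs and fell by 6.67 (SE 0.25, limma's adjusted p = 5.32e-08). Among ligands, Dll4 went from 26.7 to 38.3 FPKM to 0.439 to 1.02 in HSCs, and among receptors Notch4 went from 58.5 to 86.4 FPKM to 0.189 to 1.67. The target Hey1, a repressor of venous fate, went from 34.5 to 49.3 FPKM to 0.0973 to 0.899. These groups of libraries did not overlap for any of the 4 genes. Notch1, the receptor that is needed for the first HSCs, was not called. It was at 17.8, 26.2, 18.1 and 22.9 FPKM in the endothelial libraries and at 15.3, 11.5, 10.9 and 6.69 in HSCs, a log2 fold change of -0.91 that missed the 2-fold limit (limma's adjusted p = 0.00827).

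Transcription factors of the endothelium were mostly lower in HSCs, to differing degrees. Of 20, 16 were lower and 4 were higher, and 8 were under 1 FPKM in all 4 HSC libraries. Sox17, which acts in arterial and hemogenic endothelium, at chr1:4481009-4486494, was at 65.5, 63.8, 66.6 and 45.1 FPKM in the endothelial libraries, 0.0669 in FL 2 and 0 in the other HSC libraries. Its relatives Sox7 and Sox18 fell by 4.89 and 4.18 on the log2 scale, and Sox18 remained at 16.6 and 17.8 FPKM in FL HSCs against 2.38 and 3.66 in BM HSCs. Foxc1, a forkhead factor, was at 17.1 to 27.1 FPKM and listed at 0 in all HSC libraries. The 4 that were higher in HSCs were Fli1 and Erg, ETS factors of endothelium and blood, Mef2c, and Lmo2, a partner of the GATA and SCL factors. Erg was at 38.8, 41.3, 28.6 and 30.3 FPKM against 64.3, 87.2, 125 and 120 in HSCs, which is 1.45 on the log2 scale (SE 0.22, adjusted p = 0.000464 by limma). Lmo2 was at 117 to 185 FPKM against 336 to 708. For these 2 factors as well, no endothelial library reached the level of any HSC library.

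Caveolae are plasma membrane pits that are dense in endothelium. Of 10 genes, 6 were lower and none was called higher. Cav1, the core caveolin, was at 44.2, 46.6, 35.7 and 30.3 FPKM in the endothelial libraries and 0, 1.86, 6.35 and 0 in HSCs, which is -4.21 on the log2 scale (SE 0.57, adjusted p = 0.000213 by limma). Cav2 was not called, at 5.20 to 7.61 against 2.77 to 5.78 FPKM. Ehd2, an ATPase of the caveolar neck, Prkcdbp (cavin 3) and Pacsin3 were lower by 4.95, 3.07 and 2.79 on the log2 scale. Ptrf (cavin 1) was at 70.9 to 103 FPKM in the endothelial libraries, 19.4 and 15.1 in FL, and 62.9 and 81.6 in BM, so that the groups overlapped although it was called (-1.30, adjusted p = 0.042 by limma). Its call was lost with the replicate block (limma's adjusted p = 0.0596), with no filter, under quantile normalization or equal totals, and without any 1 Endo, HE or FL library, which leaves 5 of 10 lower. Sdpr (cavin 2) also split the HSCs, with 3.06 to 4.86 FPKM in the endothelial libraries, 3.37 and 4 in FL, and 50.4 and 42.4 in BM, and it was not called. Ehd4 and Pacsin2 were not called either.

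The Hippo pathway controls the coactivators YAP and TAZ, which read cell spreading and attachment through TEAD factors. Of 23 genes of the pathway and targets of YAP, 13 were lower in HSCs and 2 were higher, with a median log2 fold change of -1.32. The share of higher genes was below the 20.1% of all tested genes. Yap1, at chr9:7931999-8004596, was at 41.2, 60.1, 52.2 and 53 FPKM in the endothelial libraries and 0.63, 1.68, 0.902 and 0.535 in HSCs, and fell by 4.79 (SE 0.21, limma's adjusted p = 1.42e-07). Wwtr1, which encodes TAZ, went from 13.3 to 20.1 FPKM to 0.152 to 0.794. The TEAD factor Tead2 fell by 3.91 from 182 to 205 FPKM, but was still at 9.54 to 20.3 FPKM in HSCs. The canonical targets Cyr61 and Ctgf, which encode matricellular proteins, were at 51.3, 47, 55.6 and 67.6 FPKM and at 18.3, 16.2, 20.6 and 21.6 FPKM, and no HSC library exceeded 0.516 for either. Cyr61 fell by 5.55 and Ctgf by 4.26. The 2 higher genes were kinases that restrain YAP. Stk4 (MST1) rose from 6.13 to 8.43 FPKM to 33.7 to 70.9, a log2 fold change of 2.59, and Lats1 rose by 1.04, from 2.23 to 5.08 FPKM to 4.80 to 12.2, with overlapping groups. The number of higher Hippo genes was 1 rather than 2 under quantile normalization and at an adjusted p under 0.01 in limma. It was also 1 without Endo, without BM HSCs, and without Endo 1, HE 1, BM 1 or BM 2. Of the other kinases, Lats2 was lower (-1.17), and Stk3 (MST2), at 0.09, was not called.

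The 250 bases before the annotated start of Cyr61 show where TEAD letters lie. The motif searched was GGAATG on either strand, and the stretch is printed 5′ to 3′ on the strand of the gene, with the match in capitals. A match on the opposite strand reads CATTCC. Cyr61 holds 1 match, which starts 103 bases before the gene.
Cyr61, chr3:145312950-145313199, minus strand: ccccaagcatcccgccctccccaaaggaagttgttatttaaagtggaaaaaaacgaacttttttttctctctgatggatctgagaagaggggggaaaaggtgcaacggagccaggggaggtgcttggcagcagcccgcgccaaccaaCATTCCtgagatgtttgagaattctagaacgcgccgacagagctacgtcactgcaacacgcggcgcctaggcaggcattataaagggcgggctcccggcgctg
The motif was found before 12 of the 23 Hippo genes (52.2%), against 10.4% of the 14226 tested genes with sequence, 12.4% of the genes lower in HSCs and 9.85% of those that were higher. The holders include genes that fell, such as Yap1, Wwtr1, Amotl2 and Ankrd1, and genes that were not called, such as Sav1 and Wwc2. The list holds YAP targets beside pathway genes, and YAP acts through TEAD factors, so the list was not chosen independently of this motif. A match is a description of the letters and not a measured binding site.

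Matrix genes were lower in HSCs nearly throughout. Of 24 genes for basement membrane and interstitial matrix, 23 were lower and none was higher, with a median log2 fold change of -4.89. Hspg2 (perlecan, a basement membrane proteoglycan) was at 269, 264, 342 and 214 FPKM against 3.66, 1.83, 0.336 and 0.123 in HSCs and fell by 7 on the log2 scale (SE 0.41, limma's adjusted p = 8.21e-07). Sparc, a collagen-binding glycoprotein, was at 627 to 746 FPKM against 3.41 to 9.82. Fn1 (fibronectin) fell by 4.87 and was higher in FL HSCs (4.47 and 6.49 FPKM) than in BM HSCs (0.787 and 0.786). The fibrillar collagens varied among endothelial libraries, as the mural genes did. Col1a1 was at 32.8 and 187 FPKM in Endo and 356 and 370 in HE, beside mural sums of 213, 302, 883 and 943, and at most 1.34 in HSCs. With HE left out, 23 of 24 matrix genes were still lower, with a median of -4.71.

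BMP and TGF-beta are ligands that act through receptor kinases and SMAD proteins. Of 22 genes of their signaling that were tested, 12 were lower and 1 was higher (median log2 fold change -1.12). Id3, an inhibitor of bHLH factors and a direct BMP target, was at 335, 275, 315 and 267 FPKM in the endothelial libraries, 16.4 and 12.1 in fetal liver, and 0.421 and 0.591 in bone marrow, which is -5.97 on the log2 scale (SE 0.77, adjusted p = 0.000152 by limma). Acvrl1 (ALK1), the endothelial receptor of BMP9, was at 48.1 to 69.9 FPKM, at 2.51 and 0.587 in FL HSCs and listed at 0 in both BM libraries. The ligand gene Bmp4 fell by 3.45. Tgfbr3 (betaglycan), a coreceptor, was the 1 higher gene, at 4.84 to 9.11 against 17.3 to 23.8 FPKM. Smad1 and Smad5, the signal transducers, were not called, with log2 fold changes of -0.36 and -0.19.

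**Figure D2:**
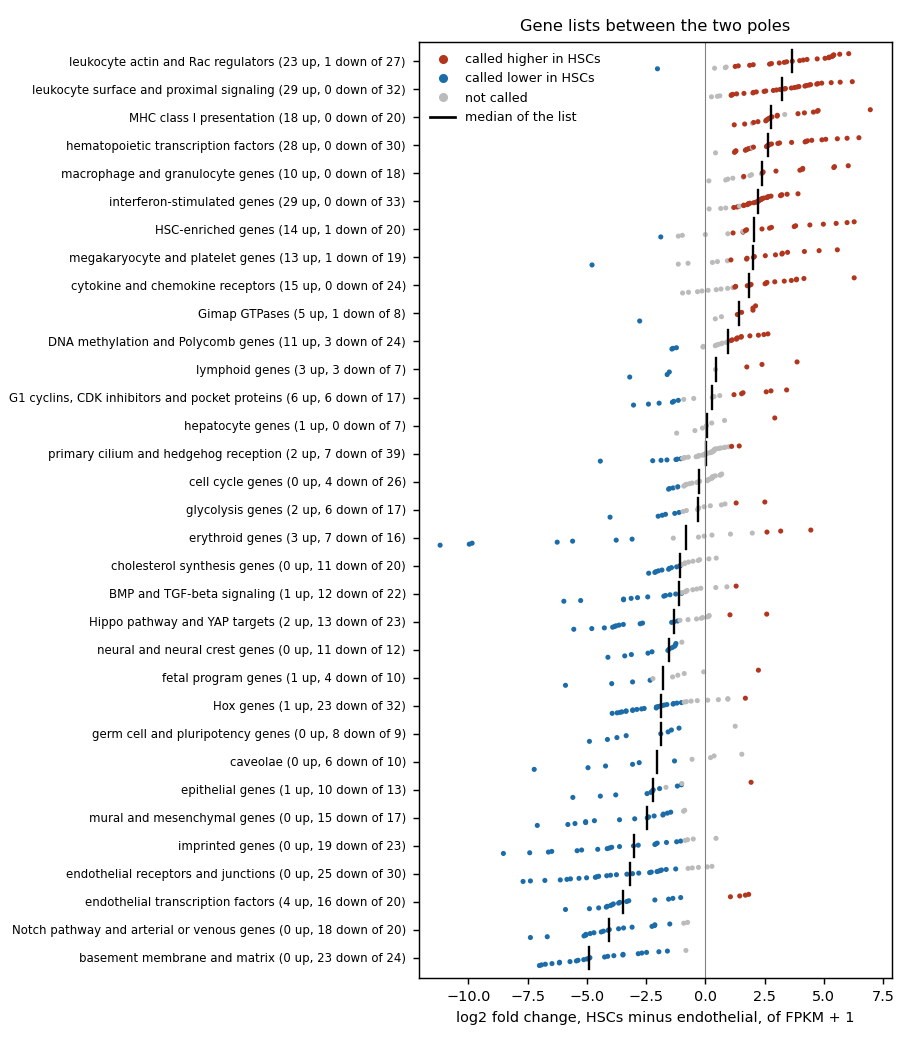
Log2 fold change (HSCs minus endothelial libraries, log2(FPKM + 1)) of each tested member of the gene lists, 1 point per gene, colored by call, with the median of each list marked by a bar and a vertical line at 0. Matrix genes lie to the left with 23 of 24 lower, and hematopoietic transcription factors to the right with 28 of 30 higher.

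On the blood side, transcription factors of hematopoiesis rose nearly as a group. Of 30 tested, 28 were higher and none was lower, with a median log2 fold change of 2.65. The study names several of them, such as Runx1, Gfi1 and Myb, from these same samples, so the list is not independent evidence of its direction. Hlf, at chr11:90197849-90252231, was at 0.368, 0.225, 0.409 and 0.584 FPKM in the endothelial libraries and 58.1, 91.7, 102 and 104 in HSCs and rose by 5.98 (SE 0.21, limma's adjusted p = 4.34e-08). Nfe2, a regulator of platelet formation, was at 1.18, 1.78, 4.43 and 4.93 FPKM, higher in HE than in Endo, and 130 to 249 in HSCs. Ikzf1 (Ikaros, a lymphoid regulator) rose by 5.08 and was at 126 and 176 FPKM in FL HSCs against 53.3 and 64.3 in BM HSCs. Sfpi1, which encodes PU.1, a master factor of myeloid cells, went from 0.649, 0.974, 4.71 and 2.14 FPKM to 72.6, 68, 41 and 41.3. Gata2, needed for the emergence of HSCs, was already expressed in the endothelial libraries at 14.1 to 18.4 FPKM and reached 76.4, 66.5, 168 and 181. Gata3 and Klf1 were not called. Klf1, the erythroid factor, was at 107 and 66.6 FPKM in FL against 5.71 and 11 in BM, against 4.13 to 9.06 in the endothelial libraries.

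Genes enriched in HSCs followed with exceptions. Of 20, 14 were higher and 1 was lower (median log2 fold change 2.07). Gpr56, an adhesion receptor, was at 4.81 and 6.27 FPKM in Endo, 13.4 and 12.7 in HE and 326 to 652 in HSCs, which is 5.52 on the log2 scale (SE 0.34, adjusted p = 1.09e-06 by limma). Angpt1, the ligand of Tek, was at 0.658 to 1.92 FPKM in the endothelial libraries, 22.3 and 38.4 in FL, and 153 and 145 in BM. The receptor and its ligand thus moved in opposite directions between the poles. Procr (EPCR), an HSC marker that endothelium also carries, missed the 2-fold limit at 0.95, with 19.2 to 33.2 against 39.2 to 64.9 FPKM. Neo1, the neogenin receptor, was the 1 lower gene (-1.88).

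Of 24 receptors for cytokines and chemokines, 15 were higher and none was lower (median log2 fold change 1.83). Il17ra, the shared chain of IL-17 receptors, was at 0.554 to 0.937 FPKM in the endothelial libraries and 30.3, 29.4, 28.8 and 31 in HSCs. Csf3r, the G-CSF receptor, rose from 1.16 to 1.45 FPKM to 12.7 to 19.3. Among the 9 that were not called, Il6st (gp130) was at 9.42 to 14.9 against 5.97 to 8.46 FPKM and Cxcr4, the receptor that retains HSCs in the marrow, at 13.5 to 23.7 against 26.5 to 57.9 (log2 fold change 0.94).

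The cytoskeleton changed its parts list. Blood cells build their cortical actin from hematopoietic members of gene families whose broad members serve adherent cells, and of 27 leukocyte actin and Rac regulators 23 were higher and 1 was lower (median log2 fold change 3.67). Rac2, at chr15:78389599-78403213, was at 0.18, 0.336, 0.697 and 0.508 FPKM against 120, 101, 73.8 and 84, whereas the ubiquitous Rac1 was at 157, 146, 135 and 143 against 137, 135, 103 and 121 and was not called. Coro1a, an actin-binding coronin, was at 5.69 and 6.30 FPKM in Endo, 11.1 and 12.9 in HE and 299 to 514 in HSCs. Fmnl1, a leukocyte formin, rose by 5.67 and the Rac exchange factor Dock2 by 5.42. The lower gene was Evl, an Ena/VASP protein, at 51.7 to 66.2 FPKM in the endothelial libraries, 30.9 and 26.2 in FL, and 6.32 and 6.46 in BM.

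Pairs of related genes were then compared directly. In 29 pairs of a leukocyte member with a broadly used member, the leukocyte member was higher in HSCs in 24 pairs and lower in 1. The broad member was lower in 13, higher in 2 and not called in 14. In 10 pairs both moved, the leukocyte member up and the broad member down. The order of the pair swapped completely in 18, with the broad member above in all 4 endothelial libraries and the leukocyte member above in all 4 HSC libraries. The pairs were chosen by family and not by their values, but with earlier results of these data known.

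The integrin activators called kindlins gave the widest exchange. Fermt2 (kindlin 2), at chr14:46078467-46149793, was at 59, 62.6, 49.9 and 56 FPKM in the endothelial libraries and 1.03, 0.428, 0.0904 and 0.959 in HSCs. Fermt3 (kindlin 3), at chr19:7073448-7093959, was at 1.33, 1.43, 3.45 and 3.62 against 187, 138, 185 and 233. The log2 ratio of the 2 genes shifted by 11, and both were called (limma's adjusted p = 1.08e-07 and 1.78e-07). The parvins Parvg and Parvb, which link integrins to actin, shifted by 8.82, the WAVE complex subunits Nckap1l and Nckap1 by 7.40, and the focal adhesion kinases Ptk2b and Ptk2 by 6.92. In these 3 the leukocyte member rose and the broad member fell. In a second kind of pair the broad member was not called. Rac2 against Rac1 shifted by 6.29, Coro1a against Coro1c by 6.27, Dock2 against Dock1 by 5.89 and Was against Wasl by 5.54, with log2 fold changes of -0.23 for Rac1, -0.86 for Coro1c, -0.47 for Dock1 and -0.20 for Wasl. Talin ran in the same direction, with Tln1 up by 1.12 and Tln2 down by 2.91, although Tln1 was the more abundant in all 8 libraries. Pairs without an exchange were present too. The protein kinases C shifted by -1.51, since Prkca rose and Prkcb was not called, and the WASP-interacting proteins Wipf1 and Wipf2 shifted by -0.13, since both rose.

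**Figure D3:**
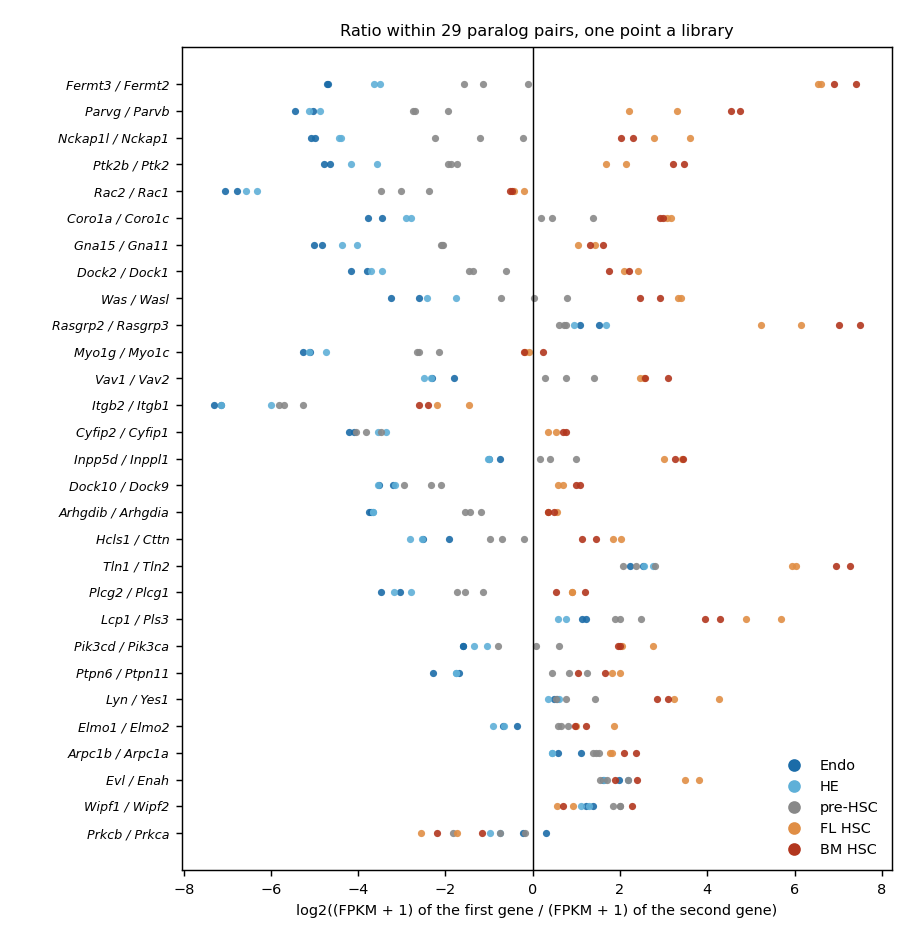
Log2 ratio of the leukocyte member to the broad member of each of the 29 pairs, as log2 of (FPKM + 1) over (FPKM + 1), with 1 point per library, colored by population. The ratio of Fermt3 to Fermt2 moves farthest, by 11, and the ratio of Wipf1 to Wipf2 stays in place, with a shift of -0.13.

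Leukocyte surface and signaling genes rose as widely. Of 32 tested, 29 were higher and none was lower (median log2 fold change 3.24). Btk, the Tec kinase of B and myeloid cells, was at 0.229, 0.203, 0.374 and 0.448 FPKM against 79.3, 66.5, 57.6 and 64.5 and rose by 5.69 (SE 0.16, limma's adjusted p = 1.45e-08). Selplg, the ligand of P-selectin used for rolling on vessels, went from 0.0484 to 0.564 FPKM to 43.4 to 51.3. Phosphatases and lipid kinases showed the same step as the actin pairs. Ptpn6 (SHP1) was at 5.79 to 9.24 against 78.6 to 175 FPKM while Ptpn11 (SHP2) missed the 2-fold limit, and Pik3cd was at 1.02 to 1.87 against 41.7 to 47.6 while Pik3ca, at 4.24 to 6.48 against 5.49 to 11.6, was not called.

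Antigen presentation and interferon-stimulated genes formed the other large block. Of 20 genes for MHC class I presentation, 18 were higher and none was lower (median log2 fold change 2.77), and of 33 interferon-stimulated genes, 29 were higher and none was lower (median 2.21). MHC class I displays peptides cut by the immunoproteasome, and interferons induce both. H2-K1, a classical class I heavy chain at chr17:34132962-34137278, was at 9.16, 11.3, 20.9 and 12.8 FPKM in the endothelial libraries, 153 and 146 in FL, and 907 and 990 in BM. The rise was 4.76 between the poles (SE 0.64, limma's adjusted p = 0.000199), and BM exceeded FL by a further 2.66 on the log2 scale. The class I list summed to 314 to 376 FPKM in the endothelial libraries, 1570 and 1380 in FL, and 4650 and 5360 in BM. B2m, the light chain, had this order too, at 76.7 to 115, 359 and 338, and 1620 and 1870 FPKM. Class I genes are near-identical copies of one another and differ between strains, so reads could be split among them, and the crosses differ between populations.

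Among interferon-stimulated genes, Oas1a, an antiviral oligoadenylate synthetase, was at 0.484, 0.363, 0.26 and 0.458 FPKM against 12.1, 8.91, 14.5 and 13.4 and rose by 3.23 (SE 0.19, limma's adjusted p = 9.68e-07). Irgm1, a GTPase of vacuolar defense, rose by 3.45, and Sp100, a nuclear body protein, by 3.91. Isg15, a ubiquitin-like modifier, was low throughout, at 0.272 to 0.938 against 4.79 to 7.75 FPKM, but did not overlap between poles. Bst2 (tetherin), at 0.86, missed the 2-fold limit, with 35.2 to 56.5 FPKM already in the endothelial libraries.

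The stretches before Isg15 and Oas1a are printed since they hold the letters of an interferon response element, GAAA, then 2 bases of any kind, then GAAA. This motif was added after the values had been seen. Matches on either strand are in capitals, overlapping matches run together, and the sequences read 5′ to 3′ on the strand of the gene. Isg15 holds 3 matches, which start between 78 and 66 bases before the gene, and Oas1a holds 2, which start 18 and 12 bases before it.
Isg15, chr4:155574928-155575177, minus strand: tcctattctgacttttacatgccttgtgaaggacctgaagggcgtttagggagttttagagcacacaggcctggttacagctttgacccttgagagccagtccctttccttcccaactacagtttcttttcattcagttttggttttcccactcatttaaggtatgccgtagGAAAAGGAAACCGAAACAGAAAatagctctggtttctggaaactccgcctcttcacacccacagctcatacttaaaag
Oas1a, chr5:121357537-121357786, minus strand: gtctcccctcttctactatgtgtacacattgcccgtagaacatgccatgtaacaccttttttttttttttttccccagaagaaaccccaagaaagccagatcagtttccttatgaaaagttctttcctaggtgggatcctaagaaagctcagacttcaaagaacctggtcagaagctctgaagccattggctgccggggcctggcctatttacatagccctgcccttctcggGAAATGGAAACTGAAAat
The motif lay before 13 of the 33 interferon-stimulated genes (39.4%), against 3.09% of all tested genes with sequence, 4.07% of genes higher in HSCs and 2.92% of genes lower in HSCs. That list is made of genes that respond to interferon, so it was not chosen independently of this motif. Motifs of hematopoietic and endothelial factors were counted in the same windows. The RUNX letters TGTGGT were found before 12.7% of higher and 10.2% of lower genes (11.5% of all), the GATA letters AGATAA before 8.41% and 6.48% (6.83%), and the ETS letters GGAAGT before 22.7% and 14.1% (21.5%). The AP-1 letters TGANTCA, at 4.21% and 4.92% (4.15%), and the E2F letters TTTCCCGC, at 1.54% and 1.37% (1.57%), were near the background in both directions. The windows of 250 bases say nothing of enhancers farther away.

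Other-cell markers were lower in HSCs for most embryonic lineages. Mural and mesenchymal genes were lower in 15 of 17 tested (median log2 fold change -2.45), neural and neural crest genes in 11 of 12 (-1.55), epithelial genes in 10 of 13 (-2.20) and germ cell and pluripotency genes in 8 of 9 (-1.88). Tagln, a smooth muscle actin-binding protein, was at 45 and 38.8 FPKM in Endo, 172 and 159 in HE and 0.651 to 1.09 in HSCs. Pou5f1, the pluripotency factor of germ cells, was at 51.3 and 37.3 in Endo, 5.80 and 5.87 in HE and listed at 0 in all HSC libraries. Krt8, an epithelial keratin, ranged from 23.5 to 233 FPKM among endothelial libraries. Of germ cell genes, 5 of 9 were lower without Endo, 8 without HE, 6 without FL HSCs and 6 without BM HSCs. Of epithelial genes, 7 of 13 were lower without HE, 10 without Endo, 9 without FL HSCs and 11 without BM HSCs. These counts thus depended in part on the populations kept. Spint2, a protease inhibitor, ran against its list at 13 to 70.3 against 98.6 to 144 FPKM.

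Lineage markers of blood cells were mixed. Megakaryocyte and platelet genes were higher in 13 of 19 (median log2 fold change 2.03), and their sum was 245 to 303 FPKM in the endothelial libraries, 429 and 301 in FL, and 1290 and 1330 in BM. Pf4, the platelet factor, was at 3.12 to 16.3 FPKM, 114 and 35.5, and 579 and 558 in the same order. Clec1b (CLEC-2) fell, from 67.5 to 125 FPKM to 0.849 to 3.93. Of 18 macrophage and granulocyte genes, 10 were higher. They include granule proteins such as Prtn3, at 0.48 to 1.36 FPKM against 127, 114, 59.4 and 70.8, and Mpo, at 0.822 to 2.32 against 190, 160, 10.6 and 8.89. The macrophage genes Csf1r, Emr1 and C1qa were not called and differed within HSCs, with C1qa at 69.9 and 10.6 FPKM in FL and 1.32 and 0.948 in BM. Without BM HSCs, 17 of the 18 were higher. Lymphoid genes were 3 higher and 3 lower of 7, and the T cell receptor gene Cd3e was below the filter. Of 7 hepatocyte genes, 1 was higher, a share below the 20.1% of all tested genes. It was Hnf4a, at 0.0112 to 0.0964 against 5.39 to 9.18 FPKM in FL and BM alike, while Alb was at 10.8 and 2.70 FPKM in FL HSCs and at most 0.026 in BM HSCs.

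Of 16 erythroid genes, 7 were lower and 3 were higher. Hba-a1, an alpha globin used from the embryo to the adult, was at 393 to 559 FPKM in the endothelial libraries, 68.7 and 15 in fetal liver, and 0 and 0.195 in bone marrow. The adult beta globins Hbb-b1 and Hbb-b2 were low in the endothelial libraries, at 4.22 to 13.1 FPKM, and not called. The alpha globin copies Hba-a1 and Hba-a2 are near identical, so their split is uncertain. Car1, carbonic anhydrase 1, was at most 0.488 FPKM in the endothelial libraries and 10 to 75.2 in HSCs. Without BM HSCs, 7 were higher and 7 lower.

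Imprinted genes were lower in 19 of 23 and higher in none (median log2 fold change -3.03). This network of parent-specific genes restrains or drives fetal growth and declines after birth. H19, a maternally expressed noncoding RNA at chr7:149761434-149764048, was at 5360, 5160, 6200 and 5050 FPKM in the endothelial libraries, 448 and 602 in FL, and 6.59 and 5.64 in BM. Its neighbor Igf2, the paternally expressed growth factor at chr7:149836673-149852721, was at 1440, 1370, 1690 and 1480, then 56.5 and 89, then 1.89 and 2.58. Both fell in 2 steps, and the pooled log2 fold changes of -6.48 and -6.62 (SE 1.43 and 1.04, limma's adjusted p = 0.00356 and 0.000503) average over them. The list summed to 9150 to 11100 FPKM, 853 and 1060, and 202 and 188. Mest was already low in FL HSCs, at 11.9 and 3.18 FPKM, and lower still in BM HSCs. Cdkn1c (p57), an inhibitor of cyclin-dependent kinases that HSCs use for quiescence, was lower in HSCs, at 191 to 265 against 37.2, 35.1, 20.1 and 21.1 FPKM.

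The fetal program behaved otherwise, as most of its genes separated BM HSCs from all other libraries. Of 10 genes, 4 were lower and 1 was higher between the poles, and 9 were lower when FL HSCs were left out and 2 when BM HSCs were. The 4 lower calls became 2 when any 1 Endo, HE or BM library was left out, 2 without a filter, and 7 or 8 without FL 1 or FL 2. Hmga2, a chromatin protein of fetal HSCs, was at 83.2, 105, 91.9 and 108 FPKM in the endothelial libraries, 81.5 and 111 in fetal liver, and 3.95 and 3.31 in bone marrow. Igf2bp3, an RNA-binding protein, was at 24.4 to 29.8, then 21.6 and 20, then 0.405 and 0.471 FPKM. Lin28b, which blocks maturation of let-7 miRNAs, was at 6.08 to 8.55, then 6.70 and 12.6, then 0.629 and 0.16 FPKM, whereas its relative Lin28a was already at most 0.943 FPKM in FL HSCs, from 12 to 21.8 in the endothelial libraries. Dnmt3b, a de novo DNA methyltransferase, was the higher gene, at 9.58 to 14.6 against 94.2, 99.3, 40.7 and 34.1 FPKM.

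Hox genes, which record position along the body axis, were lower in 23 of 32 tested and higher in 1. Hoxb8 was at 18.8, 29.7, 34.7 and 30.6 FPKM against 0.867, 1.8, 1.26 and 0.946, and Hoxd8 and Hoxd9, at 8.14 to 13.2 and 8.47 to 12.5 FPKM, were listed at 0 in all HSC libraries. Hoxa9, the Hox gene best known in HSCs, was the higher gene, at 14.8, 18.4, 17.9 and 22.5 against 56.2, 71.1, 65.4 and 52.1 FPKM (log2 fold change 1.69, limma's adjusted p = 2.03e-05). Its neighbors Hoxa7 and Hoxa10 were both at 0.95 and not called. Within the A cluster Hoxa4 and Hoxa11 were lower, and further lower genes lay in the B, C and D clusters.

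Of 26 proliferation genes, 4 were lower and none was higher. Lower genes were about as frequent as among all tested genes (15.4%), and higher genes were less frequent than there (20.1%). The list summed to 2430 to 2700 FPKM in the endothelial libraries, 3170 and 2690 in FL, and 1700 and 1730 in BM. Plk1, a mitotic kinase, was at 77.8 to 124 FPKM, then 80.8 and 50.2, then 15.7 and 13.2. The calls depended on the populations kept, as 11 genes were lower without FL HSCs, 0 without BM HSCs and 0 without HE by limma. At an unadjusted p under 0.05 the last 2 settings gave 3 and 2 lower and 11 and 2 higher genes, and without BM HSCs the median of the list went from -0.27 to 0.39. Of 17 regulators of G1, 6 were higher and 6 lower. Cdk6, the kinase whose level sets the exit of HSCs from quiescence, was at 1.19, 1.72, 1.12 and 1.4 FPKM against 18.3, 17.6, 32.3 and 33.4, and rose by 3.43 (SE 0.24, limma's adjusted p = 2.97e-06). Rbl2 (p130), a pocket protein of resting cells, and Txnip, a brake on glucose uptake, rose by 2.57 and 2.77, while Ccnd1 (cyclin D1) and Rb1 fell by 1.39 and 1.95.

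Of 24 genes for DNA methylation and Polycomb, 11 were higher and 3 were lower, with the chromobox subunits in both. Cbx6 and Cbx7 rose by 2.64 and 2.47, and Cbx2 fell by 1.41, from 22.4 to 31.5 FPKM to 14.7, 13.4, 7.40 and 6.82. Bmi1, a Polycomb factor needed for HSC renewal, rose from 7.06 to 9.46 FPKM to 25.4, 32.5, 44.7 and 32.4.

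Metabolic genes were lower in part. Slc2a1 (GLUT1), the main glucose transporter of endothelium, was at 427, 495, 614 and 402 FPKM against 44.9, 41.5, 19.4 and 18 and fell by 4.02 (SE 0.31, limma's adjusted p = 4.66e-06). Of 17 glycolysis genes, 6 were lower and 2 were higher. Hk1, the first enzyme of glycolysis, ran the other way, at 25.7 to 33.3 against 196, 172, 128 and 175 FPKM (log2 fold change 2.51). Cholesterol synthesis was lower in 11 of 20 genes and higher in none (median -1.06), with Fdps at 207, 178, 194 and 168 against 51.5, 35, 22.5 and 35.8 FPKM. Fdft1, which starts the sterol branch, and the methyl oxidase Sc4mol fell by 2.13 and 2.08.

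Of 39 genes of the primary cilium and hedgehog signaling, 7 were lower and 2 were higher, with a median log2 fold change of 0.04. The share of lower genes was near the 15.4% of all tested genes, and that of higher genes was below their 20.1%. The lower genes were Gas1, Gli1, Gli3, Cdon, Boc, B9d1 and Bbs7. The coreceptor Gas1 was at 8.12, 21.7, 36.6 and 37.7 FPKM against at most 0.231, and the target factor Gli1 at 1.52 to 6.64 against at most 0.134, both highest in HE, as the mural genes were. No intraflagellar transport gene was called lower, and Ift140 rose from 4.54 to 7.07 FPKM to 13.1 to 18.8. The Gimap GTPases, a cluster of lymphocyte survival genes on chromosome 6, were higher in 5 of 8 and lower in 1. Gimap1 was at 73.2, 60.9, 71.5 and 44.3 FPKM in the endothelial libraries and 168, 151, 178 and 228 in HSCs. Gimap4 ran against its neighbors, at 35.5 to 52.2 against 8.99, 9.32, 3.65 and 2.23.

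The pre-HSC libraries were placed on a scale from 0, the endothelial mean, to 1, the HSC mean, on log2(FPKM + 1). Genes that were higher in HSCs had a median position of 0.38 (interquartile range 0.17 to 0.58), and the 3 libraries gave 0.40, 0.36 and 0.37. Genes that were lower in HSCs had a median of 0.17 (-0.05 to 0.41), with 0.12, 0.19 and 0.18 in the 3 libraries. The median position was therefore higher for gains than for losses in each of the 3 libraries. The gap was much smaller under quantile normalization, with values given among the alternatives at the end, so its size depended on the normalization. The parts of the sort gate and of macrophage and granulocyte RNA in it were not tested. For 31.8% of the lower genes and 9.12% of the higher genes, pre-HSCs lay beyond the endothelial mean, away from HSCs. The genes of the poles were chosen without pre-HSCs, and no test was made of the positions.

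Among the losses, most endothelial lists had medians near the endothelial pole in pre-HSCs. Medians in this paragraph are of called members that were lower in HSCs. Endothelial receptors and junction genes had a median position of -0.08, matrix genes -0.01 and endothelial transcription factors -0.03. Hippo genes had 0.02 and imprinted genes -0.01. Single genes departed from these medians, with means of 316 FPKM in pre-HSCs against 507 in the endothelial libraries for Cldn5 and 168 against 272 for Hspg2. Kdr was at 223, 238 and 183 FPKM, beside 120 to 187 in the endothelial libraries, and Yap1 at 52.4, 50.3 and 41.5. CD31, CD144 and ESAM were required in the pre-HSC gate, which selects for an endothelial surface. Notch and arterial genes lay slightly toward the HSC pole, at a median of 0.12. Among them, Gja4 was at 19.3, 22.7 and 27.3 FPKM and Hey1 at 9.33, 11.1 and 12.2. Among lists of lower genes, pre-HSCs lay closest to the HSC pole for germ cell genes (0.94), glycolysis genes (0.86) and neural genes (0.64). With the 2 higher glycolysis genes included, the glycolysis median was 0.72. Pkm2, the pyruvate kinase of glycolysis, was at 518, 556 and 565 FPKM, beside 1260 to 1760 in the endothelial libraries and 356 to 694 in HSCs.

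Among the gains, receptors for cytokines stood at a median of 0.62, leukocyte signaling at 0.58, leukocyte actin regulators at 0.57, HSC-enriched genes at 0.41 and hematopoietic transcription factors at 0.39. These medians are of all called members, of which 1 leukocyte actin regulator and 1 HSC-enriched gene were lower. Sfpi1 was at 56.3, 35.1 and 83.3 FPKM and so around the levels of HSCs, Myb at 16.9, 22.1 and 14.6 was between the poles, and Slamf1 at 0.36, 0.636 and 0.959 was near the endothelial pole. Interferon-stimulated genes stood at 0.66 and MHC class I genes at 0.40, but the libraries differed on them. Replicates 1, 2 and 3 gave 0.60, 0.47 and 0.97 for interferon-stimulated genes and 0.31, 0.30 and 0.60 for MHC class I. Isg15 was at 5.32, 3.68 and 27.2 FPKM in the 3. Macrophage and granulocyte genes summed to 865, 341 and 1750 FPKM in the same libraries, with C1qa at 104, 37.5 and 245, beside 7.95 to 18.4 for the sum in the endothelial libraries. Sfpi1 had the same order over the 3 libraries. The part of macrophages and granulocytes in the pre-HSC positions, and in Sfpi1, was not tested. For leukocyte actin regulators the 3 libraries gave 0.55, 0.50 and 0.67, and for cytokine receptors 0.61, 0.53 and 0.84. Hematopoietic transcription factors gave 0.37, 0.41 and 0.40, and HSC-enriched genes 0.42, 0.47 and 0.39.

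**Figure D4:**
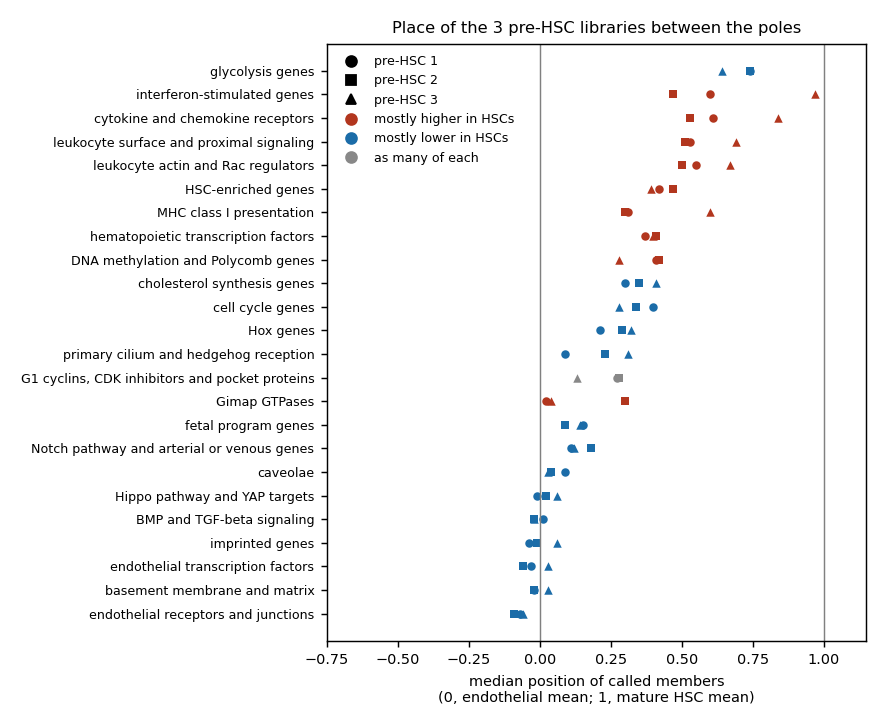
Median position of the called members of each list in pre-HSCs, where 0 is the endothelial mean and 1 the HSC mean of log2(FPKM + 1), with a symbol for each of the 3 libraries. Endothelial receptors lie between -0.09 and -0.06, and interferon-stimulated genes lie at 0.60, 0.47 and 0.97 in libraries 1, 2 and 3.

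Some genes placed FL and BM HSCs on opposite sides of the endothelium. For 197 genes (1.38%) both FL libraries lay above and both BM libraries below all 4 endothelial libraries, and for 100 (0.701%) the reverse held. By the limits used for the poles, 78 and 65 of these differed between FL and BM HSCs, and 0 of the opposed genes were called by limma in the pooled contrast, or reached an unadjusted p under 0.05 there. Since the rule selects genes by this difference, their values are a description. Lgals1 (galectin 1) was at 219, 153, 217 and 213 FPKM in the endothelial libraries, 738 and 463 in FL, and 24 and 29.7 in BM. Mt2, a metallothionein, was at 63.9 to 101, then 215 and 136, then 3.58 and 7.91. In the reverse direction, H2-Q7, a nonclassical class I gene at chr17:35576100-35580714, was at 1.54 to 2.90 FPKM in the endothelial libraries, 0.199 and 0.535 in fetal liver, and 115 and 137 in bone marrow. It is a copy-rich gene that differs between strains. Jun, an immediate early gene, was at 74.7 to 92.1, then 5.80 and 7.50, then 558 and 103, and Cpne2, a copine, at 10.6 to 16.9, then 5.15 and 3.22, then 88.3 and 101. The direction of these genes against the endothelium therefore depended on the HSC population.

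**Figure D5:**
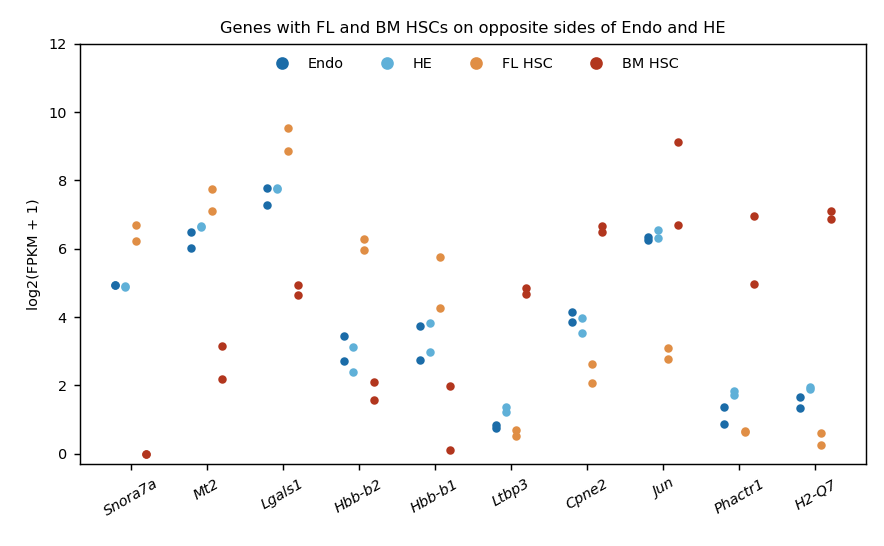
Log2(FPKM + 1) of 10 genes for which FL and BM HSCs lie on opposite sides of the endothelial libraries, with 1 point per library. Lgals1 stands at 738 and 463 FPKM in FL HSCs and at 24 and 29.7 in BM HSCs, on either side of 153 to 219 in the endothelial libraries, and H2-Q7 shows the reverse.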

How the data were processed

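RNA-seq values of 11 libraries from sorted mouse cells were used. TopHat alignments to mm9, limited by the authors to reads with a unique position, were assigned to Ensembl genes. Cufflinks, Subread and edgeR, without versions, also stand in the submitters' processing notes. The authors deposited the result as 1 table of FPKM values (37820 gene IDs), and which of the tools gave these values is not stated in any source used here. GENCODE M1 gave symbols and positions, counted from 1, for 97.93% of the IDs, and 782 were kept by ID.

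Depth was recovered from the values that 1 fragment gives in single-exon genes. Values of multi-exon genes are estimates, so no count test was run. FPKM of rare transcripts rests on few fragments, and an exact 0 can be a failed estimate: Prpf8, a splicing factor every cell uses, was listed at 0 in pre-HSC replicate 3 only.

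Log2(FPKM + 1) of the 8 libraries of the poles went into lmFit and eBayes (with a trend) of limma 3.58.1, run in R 4.3.3, for the 14263 genes that reached a FPKM of 1 in 2 or more of them. Adjusted p values are Benjamini-Hochberg over all of them. Summaries used pandas 2.3.3 and numpy 2.4.6 under Python 3.11.15, and plots matplotlib 3.10.9. The fit was tested on simulated data in which the populations of a pole did not differ. That test therefore leaves out a part of the spread present in these libraries. Nothing in the labels says that libraries of a population came from separate animals or cultures beyond the study calling them biological replicates, so the p values measure the spread between these libraries. The study lists equal numbers of dissected embryos for Endo and HE, so their libraries may share embryos and need not be independent, and no label ties a replicate number to a dissection.

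The 33 gene lists, the 29 pairs and the members were chosen with earlier results of these data known. Named genes were the 12 higher and 12 lower calls that changed most, if their pole means reached 10 FPKM and no libraries overlapped, the genes of the gates, up to 4 called members a list with the largest changes and all members of lists of at most 10, the pairs, and up to 5 genes a direction on which FL and BM HSCs lie on opposite sides. Others were chosen after their values were seen. Of 736 list entries 726 were in the table, and Foxc2, Foxf1, Irf8 and Hmgcs1 were among those not analysed here. A few further genes and sequences are not reported here. Sequences and motif matches were read from NCBIM37, in the 250 bases before each annotated gene start. Alternatives were pseudocounts of 0.1 and 0.5, no filter, quantile normalization, equal totals, an adjusted p under 0.01, a fit of 5 populations, the replicate number as a block, and each population or library left out.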

Additional observations from a re-analysis of the deposited data

Results flagged for a closer look

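For 78 genes FL HSCs lay above and BM HSCs below the endothelial libraries, with a difference called in limma by the limits used for the poles. The reverse held for 65. Given here are the 5 largest differences in each direction among those with a mean of at least 10 FPKM in FL or BM HSCs. The FL minus BM log2 fold change was 6.47 for Snora7a, 4.75 for Mt2, 4.40 for Lgals1, 4.28 for Hbb-b2 and 3.97 for Hbb-b1. It was -6.54 for H2-Q7, -5.31 for Phactr1, -4.99 for Jun, -4.23 for Cpne2 and -4.16 for Ltbp3. Snora7a is a short RNA and H2-Q7 has near-identical copies, so the counting of both is uncertain, and the 2 BM libraries differed for Jun, at 558 and 103 FPKM.

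In the mature pole, 2 sums of marker genes had 1 library apart from the other 3. Mural and mesenchymal genes summed to 11.2 FPKM in FL 2 against 3.53 to 4.82, and hepatocyte genes summed to 77.2 FPKM in FL 1 against 20 to 23.7. Such a gap arises by chance in about 1 in 20 groups, and 27 of the 452 groups of 4 libraries formed by the named genes showed one.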

How the results depend on the processing

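The number of called genes, of called genes higher in HSCs and of called genes lower in HSCs stayed within 1.5 times their values under all 20 alternatives, and no gene called in the fit reported above was called in the opposite direction under any of them. The lowest and highest counts of called genes were 4471 without HE and 5982 without FL HSCs. Leaving out each library gave 4828 to 5567 called genes, 2615 to 3241 higher and 2116 to 2326 lower. Of the higher calls, 79.8% were shared under quantile normalization and 76.2% without BM HSCs, and of the lower calls 94.3% and 88.3%. Deviations of libraries with the same replicate number had correlations of -0.169 to 0.165 over pairs of populations, and 0.121 for Endo and HE. With so few libraries, this cannot show whether libraries shared embryos. With the number as a replicate block 5020 genes were called, 2831 higher and 2189 lower. The median of all genes was 0.08 under quantile normalization and 0.27 under equal totals, against 0.23.

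The median pre-HSC position of higher genes was 0.42 with a pseudocount of 0.1 and 0.29 under quantile normalization, and that of lower genes was 0.13 and 0.22. Of 186 called named genes, 175 kept their call under every alternative. Without BM HSCs, the sign turned and the call appeared for Hmga1 (1.07), Snora7a (1.56), Lgals1 (1.55), Hbb-b1 (1.69), H2-Q7 (-1.28) and Cpne2 (-1.54), and without FL HSCs for Hbb-b2 (-1.08) and Jun (1.55). Low genes are limited by depth, least in the pre-HSC libraries and most in HE 2.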
